A study of Mus musculus with 2 samples.

Results

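The barcodes described here are those that a limit on mitochondrial transcripts takes out of a single-cell RNA sequencing data set of mouse small intestinal epithelium. They were chosen as barcodes with more than 500 detected genes and at least 25% of their unique molecular identifiers (UMIs, the tags that count captured RNA molecules) on genes whose symbol starts with mt-. The study's stated quality filter keeps barcodes with more than 500 genes and under 25%, so these are the barcodes that pass on gene number and fail on the mitochondrial share. That filter leaves fewer barcodes here than the study states to have kept, so they need not be the cells the study removed. They numbered 8933 of 21629 barcodes in all, and of the 17557 with more than 500 genes. The remaining 8624 barcodes, with the same gene minimum and under the limit, are the comparison throughout. The members were chosen by measured values, namely gene number, total UMIs and mitochondrial UMIs, so differences in these are descriptions of the choice.

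The 2 libraries came from Adipfl/fl mice, which carry floxed alleles of the adiponectin gene (Adipoq) without Cre, and from Adipfl/flpVilli-CreT mice, which carry the same floxed alleles with a Cre driven by the villin promoter. Villin is made by the intestinal epithelium, so immune cells caught in the same library are not a target of this Cre. Each genotype was 1 library of cells pooled from male mice 8 weeks old, after crypt enrichment, enzyme digestion, red cell lysis and magnetic removal of dead cells. With 1 library per genotype no difference between genotypes or between barcode groups has a replicate check, no p-value is given, and all intervals are 95% intervals that cover counting error only. The libraries held 42150623 UMIs in 9791 barcodes (Adipfl/fl) and 63370798 UMIs in 11838 barcodes (Adipfl/flpVilli-CreT). In all, 31 barcode sequences occurred in both libraries, and 4 of them were over the limit in both.

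The mitochondrial genome of mammals encodes 2 ribosomal RNAs (mt-Rnr1 and mt-Rnr2), 13 mRNAs for subunits of the respiratory chain and of ATP synthase, and 22 tRNAs. Its transcripts lie behind the mitochondrial membranes, while nuclear-encoded mRNA lies in the nucleus and cytosol. A high mitochondrial share is widely used to take out damaged cells, whose cytosolic mRNA is thought to leak out first, but absorptive cells of the gut are also rich in mitochondria. The assay primes reverse transcription with oligo(dT), which binds tails and internal runs of A. The 3 transcripts that were proposed as marks of these barcodes are therefore shown around their longest run of A, with the run in capitals and 12 bases on each side, 5′ to 3′ on the plus strand of the mitochondrial chromosome (GRCm38, GENCODE M21 gene models).

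mt-Rnr2: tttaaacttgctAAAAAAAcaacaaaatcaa
mt-Rnr1: tcagcaaaccctAAAAAggtattaaagta
mt-Co1: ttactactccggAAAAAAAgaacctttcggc

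The window of mt-Rnr2 (the large ribosomal RNA, chrM:1094-2675, 1582 bases) lies at chrM:1476-1506 and holds a run of 7 A. That of mt-Rnr1 (the small ribosomal RNA, chrM:70-1024, 955 bases) lies at chrM:693-721 and holds a run of 5. That of mt-Co1 (a core subunit of cytochrome c oxidase, chrM:5328-6872, 1545 bases) lies at chrM:6104-6134 and holds a run of 7. The motif AAAAAA, searched on the sense strand with overlaps counted, occurred 5 times in mt-Rnr2, 2 times in mt-Co1 and not in mt-Rnr1. It occurred in 46.1%, 45.8% and 26.8% of the other transcripts within 10% of their respective lengths (7723, 7715 and 9703 transcripts). These matches describe the sequence and do not show where priming took place.

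By cluster, nearly all barcodes over the limit were enterocyte-like, the absorptive cells of the villus. All barcodes with more than 500 genes were clustered together without mitochondrial genes, and clusters were named from marker lists. Enterocyte-like clusters held 4627 of 4670 barcodes over the limit in the Adipfl/fl library (99.1%, exact interval 98.8 to 99.3) and 4226 of 4263 in the Adipfl/flpVilli-CreT library (99.1%, 98.8 to 99.4). Named from each barcode's own marker UMIs instead, 73.9% and 69.4% were enterocyte-like. Under the limit that naming put 22.4% and 19.96% of barcodes at mid-villus. It put 19.9% and 27.1% at the villus tip and 19.2% and 18.8% at the villus bottom, and these zones make up its enterocyte-like barcodes. By cluster, the enterocyte-like clusters held 67.1% and 73.4% of barcodes under the limit. By zone, mid-villus barcodes (markers such as Sis, Slc15a1, Slc2a2 and Fabp2) made up 55.2% and 44.9% of those over the limit. Villus tip barcodes (markers such as Ada, Nt5e, Enpp3 and Slc28a2) made up 33.8% and 47.5%, and villus bottom barcodes (Reg3b, Reg3g, Car4 and Lypd8) 10.1% and 6.64%.

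Seen by class, the limit took 60.3% (59.2 to 61.4) of the Adipfl/fl barcodes with more than 500 genes and 43.4% (42.4 to 44.4) of those of the Adipfl/flpVilli-CreT library. It took 74.9% and 58.6% of mid-villus barcodes, 72.5% and 55.3% of villus tip barcodes, and 44.0% and 20.7% of villus bottom barcodes. Of crypt barcodes (stem and cycling cells) it took 10.0% and 5.46%, of goblet barcodes 2.17% and 0.971%, and of T cell barcodes 1.67% and 1.07%. Tuft barcodes lost 1 of 77 (1.30%) and 2 of 64 (3.13%), the higher share being in the Adipfl/flpVilli-CreT library. Enteroendocrine barcodes, the hormone-secreting cells, lost 11 of 42 and 2 of 32. With a small unnamed cluster led by the enteroendocrine genes Chgb, Tph1 and Chga, which lost 0 of 25 and 0 of 28 and was added after seeing the data, they lost 11 of 67 (16.4%) and 2 of 60 (3.33%). Myeloid barcodes lost 8 of 71 and 4 of 40, and another small unnamed cluster, led by Igkc and Jchain, lost none. The plot of the share over the limit by class shows mid-villus and villus tip to the right of all other classes in both libraries. Villus bottom of the Adipfl/flpVilli-CreT library lay below enteroendocrine barcodes of the Adipfl/fl library (26.2%, exact interval 13.9 to 42.0) but above them once the cluster led by Chgb was included.

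**Figure D1:**
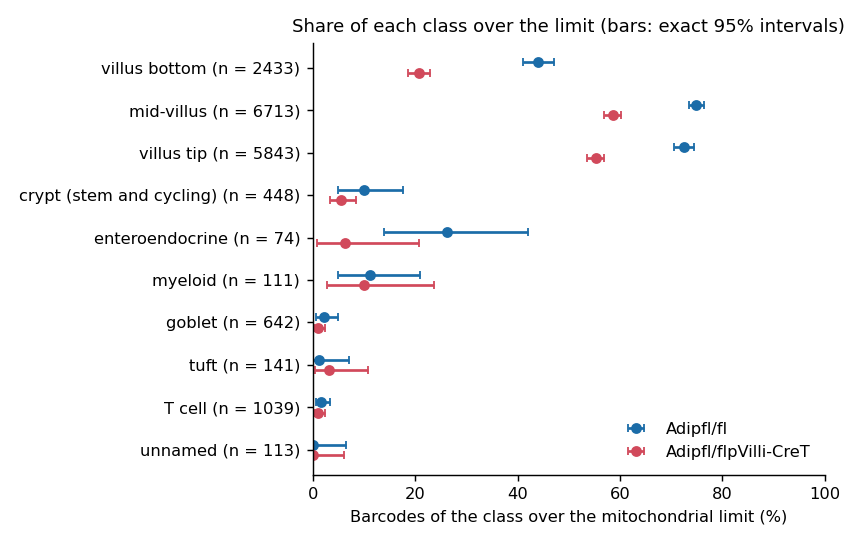
Share of each class that lay at or over the 25% mitochondrial limit, in percent of its barcodes with more than 500 genes, for both libraries; points are shares and bars exact 95% intervals. The mid-villus and villus tip classes lie between 55.3% and 74.9%, and no class outside the enterocytes passes 26.2%.

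These names depended on the method. Named from their own marker UMIs, 59.4% and 58.1% of barcodes over the limit kept their class, and 1218 and 1305 fell outside the enterocytes (43 and 37 by cluster). When 30 principal components replaced 20, only 53.1% and 63.1% of barcodes over the limit kept their class, since many moved from mid-villus to villus tip, and the count of mid-villus barcodes over the limit in the Adipfl/fl library ranged from 478 to 2724 over 5 other ways of naming. In all 5, the ratio of nuclear-encoded UMIs stayed below 1 and the CPM fold of nuclear rRNA-derived genes above 1 (1.54 to 3.73) at mid-villus and villus tip, and the ratio of ribosomal to messenger mitochondrial RNA differed in the same direction. The mid-villus ratio of mitochondrial UMIs did not, at 0.927 in the Adipfl/flpVilli-CreT library with mitochondrial genes kept in the clustering. Single genes and other lists were not recomputed in those namings. Counts of genes apart and some of the lists are also given within single clusters. Single genes and the remaining lists are given by zone only, so their values may depend on the naming. Within zones, barcodes over and under the limit also lay in different clusters. Cluster 7, a villus bottom cluster led by Lypd8l, Gsta1 and Ms4a18, held 90.6% and 87.3% of villus bottom barcodes over the limit, whereas cluster 6, led by Lypd8 and Reg3a, held 51.8% and 51.5% of those under it. Cluster 0 (mid-villus, led by Cyp3a11 and H2-Bl) lost 2465 of 2862 barcodes, cluster 3 (villus tip, led by Enpp3 and Pmp22) 1591 of 1851 and cluster 7 673 of 851. Cluster 9, a villus bottom cluster and the deepest enterocyte cluster, lost 3 of 638.

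The most abundant marker transcripts of the barcodes over the limit were those of enterocytes, which is a description, since the clusters were formed on these genes. Levels are given as CPM, a gene's UMIs summed over barcodes and scaled to a common total of nuclear-encoded UMIs. In enterocyte-like barcodes over the limit, Fabp2, the intestinal fatty acid binding protein, stood at 9429 and 10660.0 CPM (Adipfl/fl, then Adipfl/flpVilli-CreT), against 545 and 1331 CPM in T cell barcodes under the limit, which should lack it. Apoa1, an apolipoprotein of chylomicrons and HDL, stood at 42507 and 41336 CPM against 1519 and 3379 CPM in T cells. Sis, the sucrase-isomaltase of the brush border, stood at 2498 and 2461 CPM against 98.4 and 395 CPM. The share of barcodes with at least 1 UMI separates such classes poorly here, since 94.9% and 97.8% of T cell barcodes also held an Apoa1 UMI at a median depth of 5224 and 4554 UMIs, against nearly every enterocyte-like barcode over the limit at 2705 and 2553 UMIs.

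Markers of other cell types were scarce over the limit. Lgr5 and Olfm4, which mark crypt base stem cells, had 3 and 43 UMIs over all 4670 Adipfl/fl barcodes and 4 and 112 UMIs over all 4263 Adipfl/flpVilli-CreT barcodes, whereas Olfm4 had 2542 and 9313 UMIs under the limit. Of the 23 stem and cycling markers, 20 and 21 had a UMI, with a summed level of 254 and 223 CPM against 1512 and 1446 CPM under the limit. The 11 T cell markers summed to 433 and 172 CPM against 8258 and 4671, led by the granzyme Gzma and the chemokine Ccl5. All 7 goblet markers were found, at 1631 and 2577 CPM against 27192 and 24837, led by Zg16. Cd3e, a T cell receptor subunit, was seen in 0.519% and 0.379% of enterocyte-like barcodes over the limit, against 90.9% and 92.4% of T cell barcodes. Muc2, the goblet mucin, was seen in 25.2% and 40.9% of them, against 19.8% and 42.0% of T cell barcodes. The 4 globin genes had no UMI over the limit in either library. Of the 4 endothelial markers, 2 and 3 had a UMI, 13 and 20 UMIs in all, of which Pecam1 held 12 and 15, and Cdh5 was at 0.

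The 80 barcodes over the limit outside the enterocyte clusters were a mixed set. The 5 and 4 goblet barcodes carried goblet markers at 323654 and 222067 CPM, of the order of the 345560 and 287579 CPM under the limit. The 8 and 6 T cell barcodes carried T cell markers at 105832 and 14934 CPM (66795 and 64974 under the limit). The 11 enteroendocrine barcodes of the Adipfl/fl library held enteroendocrine markers at 7627 CPM against 143225 CPM under the limit, and absorptive genes at 82069 CPM against 10951 CPM. Of these 11, 9 had 3 or more enteroendocrine marker UMIs, and enterocyte-like barcodes over the limit held the same markers at 138 CPM. The crypt barcodes (10 and 19) held stem and cycling markers at 3763 and 3919 CPM against 6820 and 7195 CPM, with absorptive genes at 16144 and 36278 CPM against 4231 and 7120 CPM. Of the myeloid barcodes, 4 of 8 and 1 of 4 had 3 or more myeloid marker UMIs, and they held absorptive genes at 57935 and 79314 CPM against 9966 and 13140 CPM under the limit.

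Barcodes over the limit were shallow in nuclear-encoded RNA. They held a median of 2705 and 2554 UMIs and 889 and 882 genes, against 4838 and 4749 UMIs and 1690 and 1613 genes under the limit. Their median mitochondrial share was 34.8% (quartiles 29.98 to 40.89) in the Adipfl/fl library and 31.5% (28.0 to 36.8) in the Adipfl/flpVilli-CreT library, up to 73.8% and 70.0%. Together they held 34.6% and 19.5% of the UMIs of all barcodes with more than 500 genes and 66.2% and 45.0% of the mitochondrial UMIs.

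At mid-villus and villus tip, the nuclear-encoded count per barcode differed more than the mitochondrial count. Mid-villus barcodes over the limit had a median of 1761.5 nuclear-encoded UMIs in the Adipfl/fl library (quartiles 1410.75 to 2235) against 3136 under it (2394 to 4693), a ratio of 0.562. Their mitochondrial UMIs were 985 (807 to 1227) against 821 (634 to 1128.5), a ratio of 1.2. In the Adipfl/flpVilli-CreT library the nuclear-encoded median was 1755 against 3431.5 (ratio 0.511) and the mitochondrial 874 against 832 (ratio 1.05). At the villus tip the nuclear-encoded ratios were 0.572 and 0.618 and the mitochondrial ratios 1.31 and 1.17. The nuclear-encoded quartiles of both sides did not overlap in either zone or library, while the mitochondrial quartiles overlapped in all 4 comparisons. In the villus bottom class the medians were 1622 against 13318.5 and 1510 against 14896 nuclear-encoded UMIs, and here the mitochondrial counts were lower over the limit too, with ratios of 0.764 and 0.737. The zones mix clusters of different depth. Within single clusters, cluster 7 had nuclear-encoded ratios of 0.696 and 0.580 and mitochondrial ratios of 1.43 and 1.19, and cluster 0 had 0.696 and 0.698 against 1.47 and 1.33. In cluster 3 of both libraries and in cluster 0 of the Adipfl/fl library the mitochondrial count was the one further from 1 in relative terms, cluster 3 having nuclear-encoded ratios of 0.757 and 0.745 and mitochondrial ratios of 1.63 and 1.36.

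**Figure D2:**
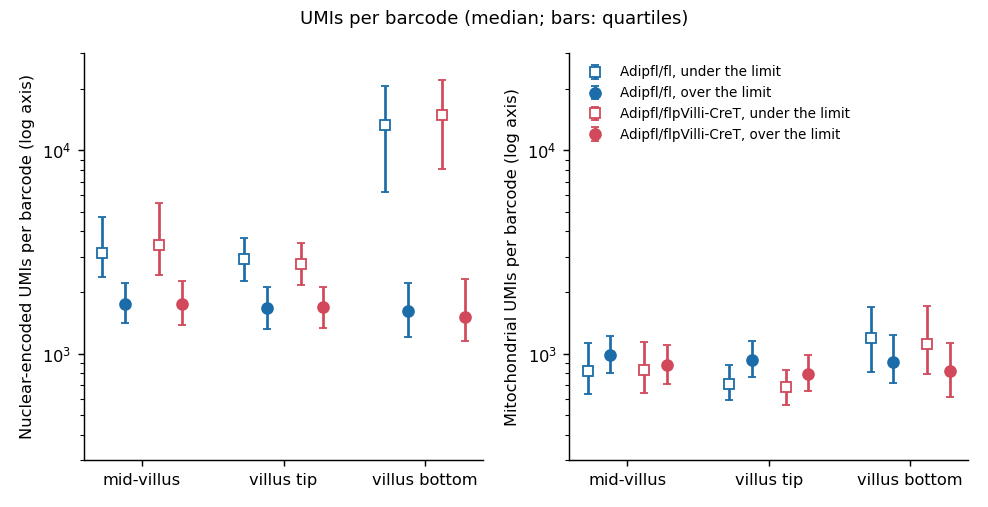
Nuclear-encoded (left) and mitochondrial (right) UMIs per barcode on log axes, by zone, library and side of the limit; points are medians and bars quartiles. Filled points over the limit sit at 1510.0 to 1761.5 nuclear-encoded UMIs in all zones, while mitochondrial medians lie between 683 and 1190.5 on both sides.

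T cell barcodes over the limit had a median of 1724 and 1769 mitochondrial UMIs against 133.5 and 107 under the limit, ratios of 12.9 and 16.5, with nuclear-encoded ratios of 0.587 and 0.978. They held a median of 172.5 and 54.5 T cell marker UMIs against 304 and 257, and absorptive genes at 14157 and 27138 CPM against 4046 and 9426 CPM. Myeloid barcodes had mitochondrial ratios of 11.2 and 8.67 and nuclear-encoded ratios of 0.525 and 0.421, but those over the limit held few myeloid markers, with a median of 4.5 and 1 myeloid marker UMIs against 51 and 19 under it, so the myeloid ratios do not compare like cells, and whether the T cell ratios do was not tested. Goblet barcodes had 836 and 1487 against 276 and 308.5 mitochondrial UMIs, ratios of 3.03 and 4.82, and nuclear-encoded ratios of 0.283 and 0.579. These rest on 8 and 6 T cell, 8 and 4 myeloid and 5 and 4 goblet barcodes. In crypt barcodes (10 and 19) the mitochondrial ratio was 1.104 and 1.021 and the nuclear-encoded ratio 0.112 and 0.117.

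From a mitochondrial share of 15% upwards, the enterocyte-like barcodes of the Adipfl/fl library fell from a median of 3544 nuclear-encoded UMIs at a share of 15 to 20% to 2175 at 25 to 30%, 1405 at 40 to 50% and 1188 above 50%. Their mitochondrial UMIs went from 781 to 834.5, 1096 and 1458 over the same bins. In the Adipfl/flpVilli-CreT library the nuclear-encoded medians were 3390.5, 2030.5, 1310.0 and 1089 and the mitochondrial medians 739.5, 769, 1016 and 1373. Between 5% and 15% the mitochondrial medians were higher again, at 1382 and 1221 for shares of 5 to 10% and 1107.5 and 969 for 10 to 15%. Under 5% they were 821 and 823, so over all zones together the mitochondrial count did not simply rise with the share. The zones changed over these bins. Villus bottom barcodes were 92.9% and 95.6% of those under 5%, but 15.4% and 10.8% at 15 to 20%. Within villus tip the mitochondrial median rose with every bin, from 664 and 640.5 under 15% to 1404 and 1388.5 above 50%. At mid-villus it was 1053 and 992 under 15% and lower at 15 to 20% (776.5 and 860). Barcodes just over the limit (25 to 26%, 232 and 353 barcodes) had medians of 2377.5 and 2214 nuclear-encoded and 813.5 and 752 mitochondrial UMIs. Those just under it (24 to 25%, 206 and 356 barcodes) had 2504 and 2267 nuclear-encoded and 810.5 and 731.5 mitochondrial UMIs. At the gene minimum, 32 and 34 barcodes over the limit lay in the 10 gene numbers just above 500, with medians of 930 and 875 nuclear-encoded UMIs. As many lay in the 10 gene numbers up to 500, with 865 and 879, and were left out. The plot of medians over the mitochondrial share shows the nuclear-encoded line falling through the limit and lying below the mitochondrial line only in the bin above 50%, as the share itself requires.

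**Figure D3:**
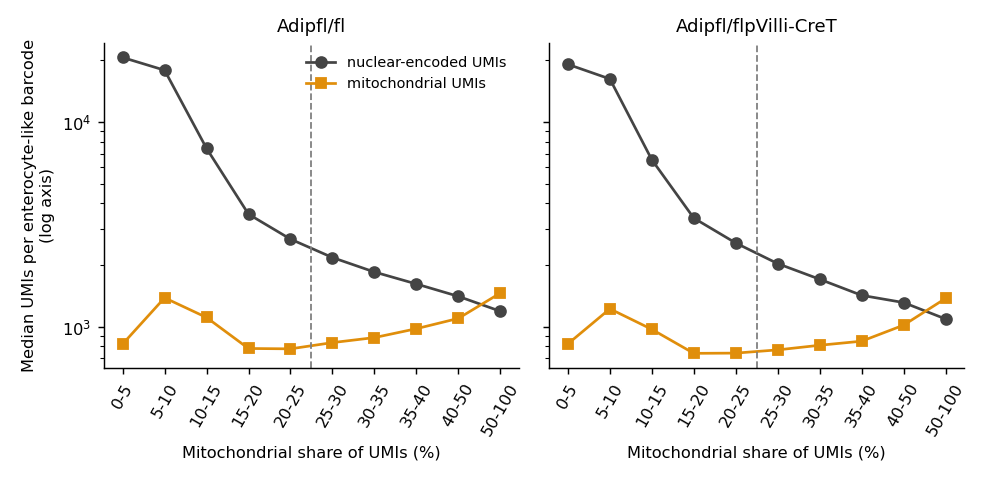
Median nuclear-encoded and mitochondrial UMIs per enterocyte-like barcode (log axis) in bins of the mitochondrial share of UMIs, for both libraries; the dashed line marks the 25% limit. Nuclear-encoded UMIs fall from 3544 and 3390.5 at 15 to 20% to 1188 and 1089 above 50%, while mitochondrial UMIs lie between 739.5 and 1096 from 15% to 50%.

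Fewer UMIs went with fewer genes, and at equal depth the difference in gene number varied by zone. Mid-villus barcodes over the limit had a median of 926 and 938 nuclear genes against 1402 and 1508.5 under it. After each barcode was thinned to 1000 nuclear-encoded UMIs, the medians were 596.5 and 607 genes against 601 and 613. Within its cluster 1 the direction was the other one, with 602 and 611 against 596 and 601. At the villus tip they were 548 and 556 against 516 and 531, with more genes over the limit. Within its clusters the difference was smaller in the same direction, with 564 and 573 against 548 and 556 in cluster 2. In cluster 4 the medians were 485.5 and 496 against 477 and 488. In the villus bottom class they were 627 and 640 against 667 and 671, with fewer genes over the limit. Within cluster 7 they were 623 and 636 against 628 and 646. Barcodes under 1000 such UMIs were left out, 84 and 99 over the limit and 7 and 9 under it at mid-villus, 79 and 115 against 9 and 14 at the villus tip, and 53 and 39 against 8 and 10 in the villus bottom class.

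The ribosomal RNAs made up most of the mitochondrial signal. Over all barcodes above the limit, mt-Rnr1 and mt-Rnr2 together took 23.7% and 21.4% of UMIs, the 13 mRNAs 11.9% and 11.4%, and the tRNAs 0.0293% and 0.0397%. Under the limit the shares were 5.22% and 4.90% for the ribosomal RNAs and 4.39% and 4.79% for the mRNAs. The 13 mRNAs alone reached 25% of UMIs in 102 of 4670 barcodes (2.18%, exact interval 1.78 to 2.65) and 89 of 4263 (2.09%, 1.68 to 2.56). The ribosomal RNAs alone did so in 2063 (44.2%) and 1171 (27.5%). With ribosomal RNA also left out of the total, the mRNAs reached 25% in 456 (9.76%) and 283 (6.64%).

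Gene by gene, all 15 mitochondrial transcripts took a larger share over the limit in mid-villus and villus tip barcodes of both libraries, which the rule largely fixes. These are shares of UMIs, which depend on priming sites and are not levels per length. At mid-villus mt-Rnr2 took 18.2% and 15.8% of UMIs against 8.87% and 7.44%, and mt-Rnr1 5.15% and 5.001% against 2.61% and 2.31%. Among mRNAs mt-Cytb (complex III) led with 3.02% and 3.04% against 1.74% and 1.85%, followed by mt-Co1 (complex IV) with 2.45% and 2.32% against 1.31% in both libraries. mt-Co2, also of complex IV, took 0.0145% and 0.0133%. Per nuclear-encoded UMI, the 15 were 1.80- to 2.76-fold higher at mid-villus, with mt-Nd6 the lowest in both libraries. At the villus tip the range was 1.83- to 3.38-fold. mt-Nd3 was highest there in the Adipfl/fl library (3.38-fold, with 2.61 in the other), and mt-Rnr2 stood at 2.28 and 2.00 and mt-Co1 at 2.32 and 1.84. The mt-Atp8 and mt-Atp6 genes overlap on the same strand, as do mt-Nd4l and mt-Nd4. Reads in these overlaps may not be assigned to a single gene. The end of mt-Nd5 overlaps mt-Nd6, which lies on the opposite strand.

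The balance of ribosomal to messenger RNA within mitochondria turned with the cells that were compared. Over all classes there were 1.99 and 1.87 ribosomal UMIs per mRNA UMI over the limit against 1.19 and 1.02 under it, a fold of 1.67 (1.67 to 1.68) and 1.83 (1.83 to 1.84). At mid-villus the ratio was 1.90 and 1.69 against 1.66 and 1.33 (fold 1.15 and 1.27). At the villus tip it was 2.37 and 2.24 against 2.78 and 2.36, so the fold was below 1 (0.853 and 0.946). Within each of clusters 0, 1, 2, 3, 4 and 7, which held most of the barcodes over the limit, it was below 1 in both libraries, from 0.679 in cluster 0 of Adipfl/fl to 0.988 in cluster 4 of Adipfl/flpVilli-CreT. Only clusters 5, 6 and 9, the deeper enterocyte clusters, stood above 1. Across the share itself the ratio rose and then fell: in mid-villus barcodes of the Adipfl/fl library it was 1.01 under 15%, 2.15 at 25 to 30% and 1.49 above 50%. In those of the Adipfl/flpVilli-CreT library it was 0.899 under 15%, 1.85 at 35 to 40% and 1.202 above 50%. Barcodes with the highest mitochondrial share were thus not those with the most ribosomal RNA per mitochondrial mRNA.

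**Figure D4:**
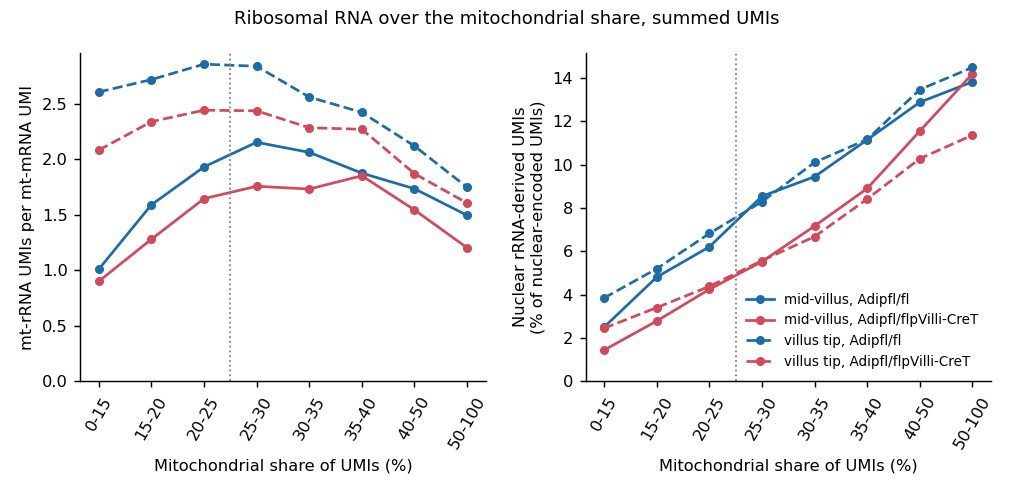
Mitochondrial ribosomal UMIs per mitochondrial mRNA UMI (left) and nuclear rRNA-derived UMIs in percent of nuclear-encoded UMIs (right), summed over barcodes in bins of the mitochondrial share, for mid-villus (solid) and villus tip (dashed); the dotted line marks the 25% limit. The left ratio peaks between 20% and 40% and falls above it, while the right share rises in every bin, in mid-villus of the Adipfl/fl library from 24934 to 138218 CPM.

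For nuclear genes, barcodes over and under the limit were compared at the same total, as CPM of nuclear-encoded UMIs. Genes were compared when they had at least 50 CPM in the higher group and 20 UMIs in all, and were counted when at least 2-fold apart in the same direction in both libraries. In enterocyte-like barcodes of all zones, 105 of 3440 genes were higher (3.05%) and 545 lower (15.8%) over the limit, with a median log2 fold over all genes of -0.01 in each library. In single libraries 4.14% and 4.28% of genes were higher and 16.4% and 17.2% lower. The largest falls were cytosolic ribosomal protein genes, with Rpl36a at 18.1 against 312 CPM (fold 0.0581) and 21.4 against 335 CPM (0.0641), and Rps15a, Rps2, Rpl12, Rps7, Rps4x, Rps24 and Rpl5 with folds of 0.0597 to 0.0826. All 46 members of the cytosolic ribosomal protein list were at least 2-fold lower, with median log2 folds of -2.82 and -2.96.

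The count depended on the weighting: with the mean of per-barcode CPM 6 genes were higher and 155 lower, and with all UMIs, mitochondrial included, as the total, 10 were higher and 808 lower, against 105 and 545. At mid-villus and villus tip the ribosomal protein difference was far smaller. Within mid-villus, 0 of 36 and 1 of 37 ribosomal protein genes were 2-fold lower (median log2 fold -0.23 and -0.34), and at the villus tip 0 of 26 and 0 of 30 (0.10 and 0.16). In the villus bottom class, which sets cluster 7 against clusters 6 and 9, 43 and 41 of 46 were 2-fold lower (-1.88 and -1.79), and within cluster 7 alone 0 of 45 in both (-0.13 and -0.06). In single libraries 0.181% and 0.33% of all genes compared at mid-villus were 2-fold higher and 0.573% and 0.33% lower, and at the villus tip 1.82% and 0.51% higher and 0.572% and 0.0728% lower. Within mid-villus only 5 of 3178 genes were 2-fold higher in both libraries (0.157%) and 7 lower (0.22%). Within the villus tip 8 of 2616 were higher (0.306%) and 1 lower (0.0382%). Within cluster 1, 0 of 3056 genes were higher (0%) and 1 lower (0.0327%), and within cluster 2, 1 of 2745 was higher (0.0364%) and 0 lower (0%).

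The 5 genes higher at mid-villus in both libraries included an abundant ribosomal RNA transcript. Rn18s-rs5, a copy of the 18S ribosomal RNA gene, stood at 100673 CPM over the limit against 46891 under it in the Adipfl/fl library (2.15-fold, interval 2.14 to 2.16) and at 71390 against 27366 in the Adipfl/flpVilli-CreT library (2.61-fold, 2.59 to 2.62). It shares sequence and locus with AY036118, so reads may be split between them. Lars2, the mitochondrial leucyl-tRNA synthetase, stood at 5994 against 2655 (2.26-fold) and 4382 against 1552 CPM (2.82-fold). Lars2 shared no run of 21 bases with either mitochondrial ribosomal RNA. Whether it shares sequence with nuclear ribosomal RNA was not tested. The predicted gene Gm10800 (2.25 and 2.80), the vault RNA gene Vaultrc5 (2.54 and 2.19) and the predicted gene Gm42826 (2.39 and 2.15) completed the 5. Fam193b (1.92 and 2.03), the goblet lectin Zg16 (1.96 and 1.88) and Mir6236, a transcript of the ribosomal DNA repeat (1.88 and 2.44), followed. Over enterocyte-like barcodes of all zones the largest rises were Gm10800 (4.42 and 4.43), Lars2 (4.34 and 4.57), Stab1 (4.14 and 3.93), Rn18s-rs5 (3.79 and 4.15) and Mir6236 (3.51 and 4.07), then Gm42826, Myo9b and Nlrp9b (3.15 to 3.57).

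The level of the nuclear rRNA-derived list rose with every bin of the mitochondrial share. At mid-villus it went from 24934 CPM under 15% to 138218 above 50% in the Adipfl/fl library, and from 14336 to 141965 CPM in the Adipfl/flpVilli-CreT library. At the villus tip it went from 38400 to 144873 and from 24437 to 113612 CPM. Lars2 went from 1320 to 8484 CPM at mid-villus in Adipfl/fl and from 770 to 9057 CPM in Adipfl/flpVilli-CreT. Within single clusters the list was higher too, 1.42- and 1.57-fold in cluster 1, 1.54- and 1.65-fold in cluster 2 and 1.64- and 1.65-fold in cluster 4.

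Nuclear genes of the respiratory chain made up most of the named falls at mid-villus. Of the 8 largest, Cox7a2 (0.452 and 0.445), Cox8a (0.446 and 0.457), Cox6c (0.478 and 0.489) and Cox5a (0.453 and 0.499) encode subunits of cytochrome c oxidase, Atp5md (0.499 and 0.474) a subunit of ATP synthase and Ndufs5 (0.486 and 0.502) one of complex I. The other two were Fth1, the ferritin heavy chain (0.451 and 0.417), and Fabp2 (10901 against 23147 CPM, 0.471, and 12014 against 24131 CPM, 0.498). Of the 38 nuclear oxidative phosphorylation genes, 37 were compared, and 33 and 35 were lower, 5 in each library by 2-fold. Their median log2 fold was -0.60 and -0.58, against -0.02 over all genes in each library. The most abundant members were Atp5b (1213 against 1577 CPM and 1142 against 1573 CPM) and Cox4i1 (1063 against 1418 and 1118 against 1434 CPM). This difference was not found within cluster 1, the mid-villus cluster with many barcodes on both sides, where 22 and 30 of 37 members were higher and the median log2 fold was 0.04 and 0.12 (0.01 and 0.03 over all genes). Mid-villus barcodes under the limit drew 33.5% and 40.6% from cluster 5, and those over it 57.8% and 50.8% from cluster 0. At the villus tip the nuclear list had median log2 folds of 0.20 and 0.09 (0.09 and 0.08 over all genes), and none of 33 and 35 members was 2-fold lower.

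Counted per barcode rather than at equal total, the lists spanned a wide range. At mid-villus a barcode over the limit held 22.3 and 23.0 UMIs of the nuclear oxidative phosphorylation list against 69.2 and 82.2 under it, ratios of 0.323 (interval 0.319 to 0.326) and 0.280 (0.277 to 0.283). Absorptive genes had ratios of 0.381 and 0.365, cytosolic ribosomal proteins 0.370 and 0.322, and immediate early genes 0.409 and 0.373. The nuclear rRNA-derived list, by contrast, stood at 197 UMIs per barcode against 199 (0.988, 0.983 to 0.994) and 140 against 129 (1.09, 1.084 to 1.097). Lars2 stood at 11.5 against 11.0 (1.04, 1.02 to 1.07) and 8.47 against 7.17 (1.18, 1.15 to 1.21). Most markers of other cell types lay between these lists. Goblet markers had ratios of 0.870 and 0.759, T cell markers 0.925 (0.796 to 1.08) and 0.772 (0.674 to 0.884), and B or plasma cell markers 0.886 (0.710 to 1.11) and 0.804 (0.679 to 0.953). Enteroendocrine markers stood at 0.542 and 0.499, crypt markers at 0.527 and 0.477 and myeloid markers at 0.371 and 0.348, the last close to absorptive genes. Per mid-villus barcode, Lars2 was thus higher in both libraries, while the rRNA-derived list was higher in the Adipfl/flpVilli-CreT library and slightly lower in the Adipfl/fl library. The rise in CPM of goblet, T cell and plasma cell markers came with ratios per barcode below 1 at mid-villus, the T cell and plasma cell intervals of the Adipfl/fl library holding 1. The total to which CPM was scaled was lower over the limit throughout. Whether RNA free in the suspension accounts for these UMIs was not tested.

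In villus tip barcodes the lists were ordered in part differently. The rRNA-derived list had ratios of 1.04 (1.03 to 1.05) and 1.07 (1.07 to 1.08) per barcode and Lars2 1.15 and 1.12. Absorptive genes stood at 0.452 and 0.508, tight junction and cytoskeleton genes at 0.417 and 0.457, and the villus tip markers themselves at 0.375 and 0.441. Nuclear oxidative phosphorylation (0.591 and 0.609) and cytosolic ribosomal protein genes (0.558 and 0.620), which lay at or below absorptive genes at mid-villus, lay above them here. Above absorptive genes in both zones lay mitochondrial transcription and biogenesis genes (0.846 and 0.810 at the villus tip) and crypt markers (0.714 and 0.731). So did integrated stress response genes (0.615 and 0.659) and enteroendocrine markers (0.586 and 0.697). Goblet markers stood at 1.22 (1.14 to 1.30) in the Adipfl/fl library and 0.792 (0.769 to 0.817) in the Adipfl/flpVilli-CreT library, on opposite sides of 1.

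**Figure D5:**
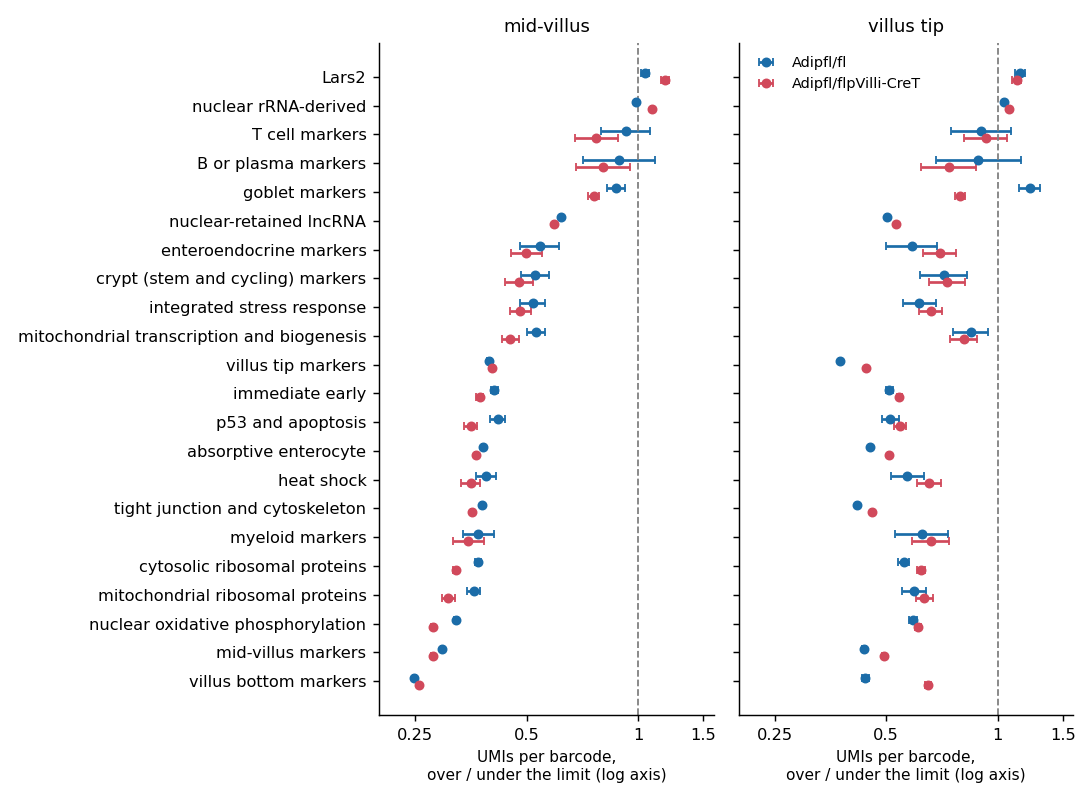
Mean UMIs per barcode over the limit divided by that under it (log axis) for gene lists in mid-villus and villus tip barcodes; bars are exact 95% Poisson intervals and the dashed line marks 1. Nuclear rRNA-derived genes and Lars2 sit at 0.988 to 1.18, T cell, plasma cell and goblet markers at 0.737 to 1.22, and all other lists shown at 0.249 to 0.846; lists with under 50 UMIs on either side are not drawn.

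Among the genes lower at the villus tip were markers of the tip itself. All 9 villus tip markers were lower over the limit in both libraries, with median log2 folds of -0.59 and -0.41 and none by 2-fold, where the median over all genes was 0.09 and 0.08. Within cluster 2 the list summed to 0.772 and 0.808 of its level under the limit, and within cluster 4 to 0.805 and 0.902. Ada, the adenosine deaminase, stood at 3446 against 6401 CPM (0.538) and 4591 against 6932 CPM (0.662). Apoa4 stood at 19751 against 29761 CPM (0.664) and 18612 against 24778 CPM (0.751), and the nucleoside transporter Slc28a2 at 0.582 and 0.725. Of 13 tight junction and cytoskeleton genes, 12 were lower in each library, with median log2 folds of -0.46 and -0.30, among them Krt8 (0.664 and 0.706), Epcam (0.767 and 0.825) and Cldn7 (0.766 and 0.822). The single gene more than 2-fold lower in both was Acta1, the skeletal muscle actin (36.7 against 137 CPM and 24.2 against 55.7 CPM). Marcksl1, Plb1, Dusp10, S100a6, Duoxa2, 3300005D01Rik and Duox2 followed with folds of 0.349 to 0.564. Duox2 and Duoxa2 form the dual oxidase that makes hydrogen peroxide at the epithelial surface.

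Higher at the villus tip were 2610005L07Rik (2.88 and 2.31), Stab1 (2.38 and 2.27), Rab11fip3 (2.19 in both), Fam193b (2.29 and 2.11), the nuclear receptor gene Nr1i3 (2.04 and 2.14), Sema4g (2.57 and 2.03), the dynamin gene Dnm1 (2.19 and 2.03) and the splicing kinase gene Prpf4b (2.07 and 2.02). Ppargc1a, the coactivator that drives mitochondrial biogenesis, was at 57.7 against 25.1 CPM (2.30) and 33.5 against 11.9 CPM (2.82) at the villus tip. The second pair lies below the 50 CPM minimum. At mid-villus it was at 167 against 149 CPM and 131 against 138 CPM. Slc5a1, the sodium-glucose transporter and a mid-villus marker, was 1.52 and 1.48 times higher in tip barcodes over the limit. Reg3b, a villus bottom lectin, was at 0.753 and 1.13, in opposite directions.

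Position markers moved at mid-villus too. Villus bottom markers summed to 0.540 and 0.612 of their level under the limit, with Reg3b at 5926 against 11878 CPM and 7776 against 13309.8 CPM. Mid-villus markers summed to 0.639 and 0.666, and villus tip markers to 0.858 and 0.964. Malat1, a long noncoding RNA kept in the nucleus, was at 38292 against 28165 CPM (1.36) and 39261 against 27364 CPM (1.43) at mid-villus, and at 0.901 and 0.912 at the villus tip, so it differed in direction between zones. Its list, with Neat1 and Kcnq1ot1, had per-barcode ratios of 0.619 and 0.592 at mid-villus and 0.502 and 0.533 at the villus tip.

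Stress programmes were read against the few genes that were 2-fold apart at all in these zones (0.0728% to 1.82% of genes by library and direction), so a count of 0 says nothing particular about them. None of the compared members of the immediate early, heat shock, p53 and apoptosis or integrated stress response lists was 2-fold higher or lower at mid-villus or villus tip in either library. At mid-villus the immediate early genes had median log2 folds of -0.19 and -0.25 (11 of 13 compared), the heat shock genes -0.26 and -0.20 (3 of 9), and the p53 and apoptosis genes -0.16 and -0.21 (6 of 12), with Cdkn1a at 282 against 309 CPM and 325 against 396 CPM. The 2 compared genes of the integrated stress response, Atf4 and Ddit3, had folds of 1.19 to 1.24. Mitochondrial ribosomal protein genes had median log2 folds of -0.43 and -0.42 at mid-villus, 11 and 12 of 12 compared being lower. Counted per barcode, their ratios were 0.360 and 0.308 at mid-villus and 0.595 and 0.634 at the villus tip. Those of the heat shock list were 0.389 and 0.353 at mid-villus and 0.571 and 0.651 at the villus tip, so the mid-villus values do not stand for both zones.

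In the villus bottom class 295 of 3701 genes were higher (7.97%) and 466 lower (12.6%) in both libraries. This class compares cluster 7 over the limit with clusters 6 and 9 under it. Within cluster 7 itself, 2 of 3463 genes were higher (0.0578%) and 6 lower (0.173%). In the crypt class, the largest outside the enterocytes among barcodes over the limit of both libraries pooled (29), the total over the limit was 18335 and 32913 nuclear-encoded UMIs. There 1 UMI stands for 54.5 and 30.4 CPM, so that in the Adipfl/fl library a single UMI passed the 50 CPM minimum, and no count of genes apart is given. By the same rule the 8 genes with the highest folds were Gm43361, Dll4, Hsd3b3, Slc6a19, Rn18s-rs5, Enpp7, Clcn2 and 4932422M17Rik, of which Slc6a19 (a neutral amino acid transporter) and Enpp7 (alkaline sphingomyelinase) are enterocyte genes. Of these, Rn18s-rs5 had 1862 and 4320 UMIs over the limit and the other 7 had 2 to 16. The 8 with the lowest folds were Gm10076, Psmb3, Mt2, Rps27, Eif3h, Mif, Mrpl18 and Tagln2. All but Rps27 and Eif3h had Adipfl/fl intervals that reached 1, on 1 UMI each, and Eif3h also rested on 1 UMI there. Rps27, a ribosomal protein gene, had 5 and 13 UMIs and folds of 0.152 (0.0493 to 0.355) and 0.190 (0.101 to 0.325).

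Because the limit took different shares of each class in each library, applying it as stated moved the class makeup of these tables. Before the limit, mid-villus barcodes were 0.749 times (interval 0.713 to 0.786) as large a share of the Adipfl/flpVilli-CreT library as of the Adipfl/fl library, and after it 0.867 times (0.795 to 0.945). Villus tip barcodes went from 1.33 (1.26 to 1.40) to 1.52 (1.38 to 1.67), and crypt barcodes from 2.74 (2.19 to 3.46) to 2.02 (1.595 to 2.579). Goblet barcodes went from 1.41 (1.199 to 1.666) to 1.00 (0.849 to 1.18) and T cell barcodes from 0.925 (0.817 to 1.05) to 0.652 (0.576 to 0.739). The crypt share was higher in the Adipfl/flpVilli-CreT library either way, while the goblet interval held 1 only after the limit and the T cell interval only before it. The zone ratios depended on how barcodes were named, which was tried for them after seeing the data. With 30 principal components villus tip went from 0.956 to 1.24 and mid-villus from 0.922 to 0.861, so villus tip lay below 1 before the limit. In the other 4 namings villus tip was above 1 and mid-villus below 1 both before and after it. Each ratio compares 1 library with 1 library, and crypt enrichment and depth can set such shares.

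Few nuclear-encoded genes lay 2-fold apart between the libraries over the limit. At mid-villus 14 of 3285 genes were at least 2-fold higher and 2 lower in the Adipfl/flpVilli-CreT library, and at the villus tip 9 and 6 of 2855. The same counts under the limit were 12 and 4 of 3261 and 10 and 7 of 2578. Among the 15 mitochondrial genes, 1 lay 2-fold apart over all classes. mt-Nd3, a subunit of complex I, was 1.19% and 2.80% of mitochondrial mRNA UMIs over the limit, 2.36 times (2.32 to 2.40) as much in the Adipfl/flpVilli-CreT library, and 1.26% and 2.93% under it, 2.33 times (2.29 to 2.37). Adipoq, the gene the Cre is meant to delete, had 1 UMI, in 1 of 4670 barcodes over the limit in the Adipfl/fl library, and 0 UMIs in the 4263 of the Adipfl/flpVilli-CreT library, which allows a share of barcodes with a UMI of up to 0.0865%. The deletion could not be checked in these barcodes at this depth.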

How the data were processed

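The authors deposited, for each library, a matrix of unnormalized UMI counts over 55357 genes. The submitters' processing notes name bcl2fastq 5.0.1, Cell Ranger and mm10, and the file header names Cell Ranger 7.1.0. Whether intronic reads were counted is not given in the sources used here. The stated filter (more than 500 genes, under 25% mitochondrial) leaves 3069 barcodes (Adipfl/fl) and 5555 (Adipfl/flpVilli-CreT). These are far fewer than the study states to have kept. The filter was applied as stated, so the shares over the limit describe it and not the cells the study removed.

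Barcodes were clustered in Seurat 5.3.0 under R 4.3.3 without mt- genes (LogNormalize, scale factor 10000, 2000 variable genes, 20 principal components, resolution 0.8), giving 19 clusters. The members, marker lists and gene lists were chosen with earlier results of these data known. A cluster was named when at least 3 markers had 10 UMIs and 2 times their median level over clusters. It took the class with the largest share of such markers, and stayed unnamed if its 10 leading genes held more markers of another class, a rule set after the clusters were seen. Stem and cycling markers were then merged. No barcode was taken out as a doublet, because Scrublet in scanpy 1.11.5 marked 0 of 7739 and 0 of 9818 barcodes and so had not worked.

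Named genes are the 8 largest rises and 8 largest falls, ranked by the smaller log2 fold of both libraries, in enterocyte-like and crypt barcodes, and by the same rule, added later, within mid-villus and villus tip. Also named are the 15 mitochondrial rRNA and mRNA genes, Adipoq and the most abundant list members. Fabp2, Apoa1, Sis, Cd3e, Muc2 and Lgr5 in shares of barcodes, Slc5a1, Ppargc1a, Malat1, Epcam and Cldn7 were singled out after their values were seen. Of the nuclear rRNA-derived list, 3 of 5 genes were in the tables. A fold against 0 UMIs was computed against 3. Shares have Clopper-Pearson intervals, folds exact Poisson intervals, and the ratio of rRNA to mRNA a log-normal approximation in place of the planned exact interval. With 1 library per genotype no model was fitted. The fold computation was tried on Poisson counts simulated for 3315 mid-villus genes, of which 200 were changed, and 94.87% of intervals held the true fold. The simulation left out variation between barcodes, so it cannot show how well the intervals cover these data.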

Additional observations from a re-analysis of the deposited data

Results flagged for a closer look

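The barcodes with at most 500 genes, which apart from those just below the gene minimum enter no comparison above, held mostly mitochondrial RNA. The median mitochondrial share was 73.9% over 2052 barcodes of the Adipfl/fl library and 73.2% over 2020 of the Adipfl/flpVilli-CreT library, and 1894 (92.3%) and 1821 (90.1%) of them lay at or over 25%. Their median was 345 and 329 nuclear-encoded and 924.5 and 866 mitochondrial UMIs.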

How the results depend on the processing

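No paired analysis was possible because each genotype was 1 library, and for the same reason no library could be left out. Of 126 alternative values, 59 stayed within the counting interval or within 1.5 times the count, 64 moved and 3 changed sides; values are Adipfl/fl, then Adipfl/flpVilli-CreT. The share over the limit (60.3% and 43.4%) was 72.6% and 60.8% at a limit of 20%, 45.2% and 26.1% at 30%, 1.32% and 0.906% with the 13 mRNAs only, 1.32% and 0.927% without the ribosomal RNAs, 63.1% and 47.0% with more than 200 genes and 36.7% and 22.5% with more than 1000. The fold of mitochondrial ribosomal to messenger RNA (1.67 and 1.83) was 2.16 and 2.32 at 20%, 1.36 and 1.54 at 30%, 1.46 and 1.58 with more than 1000 genes, 1.69 and 1.83 without the 528 and 770 barcodes of highest Scrublet score, 1.30 and 1.34 as a median per barcode and 1.15 and 1.27 within mid-villus, and it changed sides within villus tip (0.853 and 0.946). The enterocyte share of barcodes over the limit (99.1% in both) was 91.9% and 94.1% with mitochondrial genes kept in the clustering, 99.5% in Adipfl/fl from the 15 nearest barcodes under the limit, 98.6% in Adipfl/flpVilli-CreT with more than 1000 genes, and 73.9% and 69.4% from each barcode's own marker UMIs. The nuclear-encoded ratio of enterocytes (0.491 and 0.488) was 0.290 and 0.315 at 20%, 0.564 and 0.529 at 30%, 0.577 and 0.575 with more than 1000 genes, 0.562 and 0.511 within mid-villus and 0.572 and 0.618 within villus tip. Genes 2-fold higher (105) numbered 234 at 20%, 50 at 30%, 10 with all UMIs as the total, 222 with a minimum of 10 CPM, 517 with none, 6 by per-barcode mean, 295 within villus bottom, 5 within mid-villus, 8 within villus tip and 164 without nuclear rRNA-derived UMIs. Genes 2-fold lower (545) numbered 1128 with a minimum of 10 CPM, 1671 with none, 155 by per-barcode mean, 7 within mid-villus and 1 within villus tip. The villus tip share of Adipfl/flpVilli-CreT over that of Adipfl/fl before the limit (1.33) changed sides with 30 principal components (0.956). The comparisons within zones, those of zone shares under other namings and the one without nuclear rRNA-derived UMIs were chosen after seeing the data; the causes were not tested. The shallow crypt, goblet and immune groups over the limit limit what can be said of them. Scrublet had not worked here, so the alternatives that rest on its score cannot show whether doublets matter.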

Other observations

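In the barcodes with at most 500 genes, nuclear rRNA-derived transcripts stood at 306370 and 224574 CPM (Adipfl/fl, then Adipfl/flpVilli-CreT), Lars2 at 10586 and 9315 CPM, goblet markers at 7635 and 13798 CPM and T cell markers at 648 and 833 CPM. They held 1.84 and 1.70 mitochondrial ribosomal UMIs per mitochondrial mRNA UMI.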
